A study of Mus musculus with 21 samples.

Results

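The chemokine genes Cxcl9, Cxcl10 and Cxcl11 encode the interferon-inducible ligands of the receptor CXCR3, and their transcripts were followed here in mouse macrophages given a soluble form of the mannose receptor. The 3 genes were taken from the deposited table of estimated counts by Ensembl identifier and are 3 of its 23250 genes. All 3 passed the filter on low counts, as did 13468 genes in all. The study asked how soluble mannose receptor acts on macrophages. RNA was sequenced from 21 libraries in 7 groups of 3. According to the series' description the cells lacked the receptor itself, which is the product of Mrc1. All groups held macrophages grown from bone marrow of mice of C57BL/6J background for 7 days in medium with 2.5% supernatant of a cell line that secretes GM-CSF, a growth factor for myeloid cells. The untreated group was taken at 0 h. The other groups received, for 4, 12 or 24 h, either FcMR, in which the Fc part of human IgG1 is joined to the part of the mannose receptor outside the cell, or an isotype control protein. The labels do not say whether libraries of a group came from separate mice or cultures, so p-values measure the spread between these libraries, which may be technical.

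CXCR3 is carried mainly by activated T cells and natural killer cells, which move towards its ligands. Macrophages and other cells make the ligands when interferon-gamma or type I interferon binds its receptor and the JAK kinases there pass the signal to transcription factors. Cxcl10 is also induced through IRF3 and NF-kB downstream of pattern recognition receptors, whereas Cxcl9 is known as the ligand that depends most on interferon-gamma. Cxcl11 carries a frameshift in the C57BL/6 strain, so that its transcript does not yield a full chemokine there.

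The 3 genes lie beside each other on the minus strand of chromosome 5 (GRCm38, GENCODE M21). Cxcl9 (ENSMUSG00000029417.9) spans 92321347 to 92328079 and Cxcl10 (ENSMUSG00000034855.13) spans 92346638 to 92348889. Cxcl11 (ENSMUSG00000060183.6) spans 92359544 to 92365485 and is annotated as a polymorphic pseudogene, where the other two are annotated as protein coding. Gaps of 18558 and 10654 bases separate the 3 genes. Cxcl10 and Cxcl11 lie within Art3, a gene of the opposite strand, and Cxcl11 also overlaps the pseudogene Gm2673. Whether counting used strand is not given in the sources used here, so reads of Art3 could not be told apart from reads of these genes. Art3 itself held 0 to 5 counts in every library.

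The 250 bases upstream of the start are shown for the 2 of 3 genes matched in the RefSeq promoter table (GRCm38.p6), because both genes were called higher with FcMR at every time while their upstream sequences hold different motifs. They are written 5′ to 3′ on the strand of the gene and end at the base before the start. Cxcl9 is shown from chr5:92328080-92328329 and Cxcl10 from chr5:92348890-92349139, both on the minus strand. Capitals mark matches to 6 motifs that were searched on both strands: the ISRE-type pattern (GAAA, any 2 bases, GAAA), GAS-type TTCNNNGAA, the NF-kB consensus, AP-1-type TGANTCA, the CCAAT box and TATA-type TATAAA.
Cxcl9: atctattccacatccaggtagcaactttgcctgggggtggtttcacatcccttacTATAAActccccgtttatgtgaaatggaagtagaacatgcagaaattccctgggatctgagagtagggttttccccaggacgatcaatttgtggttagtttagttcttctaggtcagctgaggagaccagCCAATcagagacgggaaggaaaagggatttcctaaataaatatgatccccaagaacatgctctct
Cxcl10: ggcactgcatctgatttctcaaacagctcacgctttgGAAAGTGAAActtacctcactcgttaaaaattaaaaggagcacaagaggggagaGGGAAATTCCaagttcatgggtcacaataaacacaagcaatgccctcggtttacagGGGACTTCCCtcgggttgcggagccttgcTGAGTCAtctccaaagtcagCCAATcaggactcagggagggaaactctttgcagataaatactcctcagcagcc

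The Cxcl10 sequence held the ISRE-type match GAAAGTGAAA at bases 213 to 204 before the start. It also held the NF-kB matches GGGAAATTCC at 159 to 150 and GGGACTTCCC at 103 to 94, and the AP-1-type match TGAGTCA at 74 to 68. The Cxcl9 sequence held no match to the letters of these 3 motifs in this window. Both sequences held a CCAAT box, at 65 to 61 in Cxcl9 and at 54 to 50 in Cxcl10, and it sat in the longest run they shared, CAGCCAATCAG, of 11 bases. Cxcl9 held TATAAA at 195 to 190, and neither sequence held the GAS-type letters. Of 32851 promoter windows of this length, 2.98% held an ISRE-type match, 3.9% an NF-kB match, 6.75% an AP-1-type match, 33.8% a CCAAT box, 12.4% TATAAA and 7.02% a GAS-type match. The shared run was in 0.755% of them. A match is a description of these letters and does not show that a factor binds there. The lack of a match likewise does not show that a sequence lacks a site, because sites that differ from these letters were not searched.

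Depth differed 12.1-fold between libraries, from 5532225 to 66729533 counts. Levels are in CPM, which puts the counts of each library on the same total, after TMM scaling for differences in composition. A total of 3 counts corresponded to between 0.045 and 0.542 CPM before that scaling. Mrc1 held 0 to 11 counts in every library. The 8 macrophage markers summed to 20411 to 35843 CPM, led by Lyz2 at 16643 CPM or more. Of 8 T and NK cell markers 7 were in the table and summed to 2.01 to 4.99 CPM. Their highest count in a library ran from 4 for Cd3e to 94 for Cd8a, and no Cd8a level was above 3.01 CPM. In the numbering of the libraries, 2 titles are out of the order of the groups, those of isotype 4 h replicate 3 and FcMR 12 h replicate 1. Without both of these libraries, every FcMR and isotype difference called for the 3 genes was called again, between 1.22 and 2.30 on the log2 scale.

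Per kilobase, Cxcl10 was the most abundant of the 3 transcripts in each of the 7 groups. The untreated libraries held 38.0, 36.6 and 26.6 CPM of Cxcl10. At 4 h the isotype libraries held 494, 411 and 600.5 CPM and the FcMR libraries 2288, 2248 and 2162 CPM. Every FcMR library therefore stood far above every isotype library, and every isotype library above the untreated ones. At 12 h the isotype libraries had come down to 46.8, 43.4 and 39.2 CPM, just above the untreated range, while the FcMR libraries held 180.4, 171 and 134 CPM. At 24 h the isotype libraries held 5.69, 5.68 and 6.31 CPM and the FcMR libraries 20.9, 18.4 and 18.04 CPM. All 6 libraries of 24 h were thus below the lowest untreated library, with isotype the lower of the groups. Per kilobase of its longest transcript, the level of Cxcl10 in FcMR libraries at 4 h ranked 73rd of 13440 tested genes with a known length.

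Cxcl9 started near the floor and stayed above its starting level throughout. Untreated libraries held 12, 16 and 7 counts, or 1.17, 0.736 and 0.572 CPM. At 4 h the isotype libraries held 20.4, 19.1 and 18.9 CPM, and the FcMR libraries 72.0, 63.9 and 54.4 CPM. The lowest FcMR library was above the highest isotype library by a wide margin, and the isotype group was narrow. At 12 h the isotype libraries held 7.85, 7.33 and 8.995 CPM and the FcMR libraries 26.3, 23.3 and 20.5 CPM. At 24 h the isotype libraries held 2.45, 1.61 and 2.45 CPM and the FcMR libraries 9.35, 8.71 and 9.87 CPM. Unlike Cxcl10, Cxcl9 in every treated library was above the untreated range at all 3 times. Per kilobase its rank went from 12546th of 13440 genes in untreated cells to 2816th with FcMR at 4 h.

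Cxcl11 was the scarcest of the 3 per kilobase in each group. Untreated libraries held 7, 7 and 5 counts, or 0.680, 0.322 and 0.409 CPM. At 4 h the isotype libraries held 3.16, 4.33 and 2.32 CPM and the FcMR libraries 10.6, 8.76 and 6.52 CPM, again without overlap. At 12 h the isotype libraries held 6, 3 and 21 counts, or 0.337, 0.4401 and 0.318 CPM, which overlapped the untreated range. The FcMR libraries of 12 h held 19, 16 and 24 counts, or 1.39, 1.40 and 1.17 CPM, above both. At 24 h the isotype libraries held 0, 0 and 2 counts of Cxcl11 and the FcMR libraries 4, 5 and 2, so these groups overlapped and each rested on a few counts. With 3 counts as the limit that a count of 0 allows, replicates 1 and 2 of the isotype libraries of 24 h could hold up to 0.314 and 0.345 CPM before TMM scaling, and the upper ends of their exact 95% intervals are 0.386 and 0.424 CPM.

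**Figure D1:**
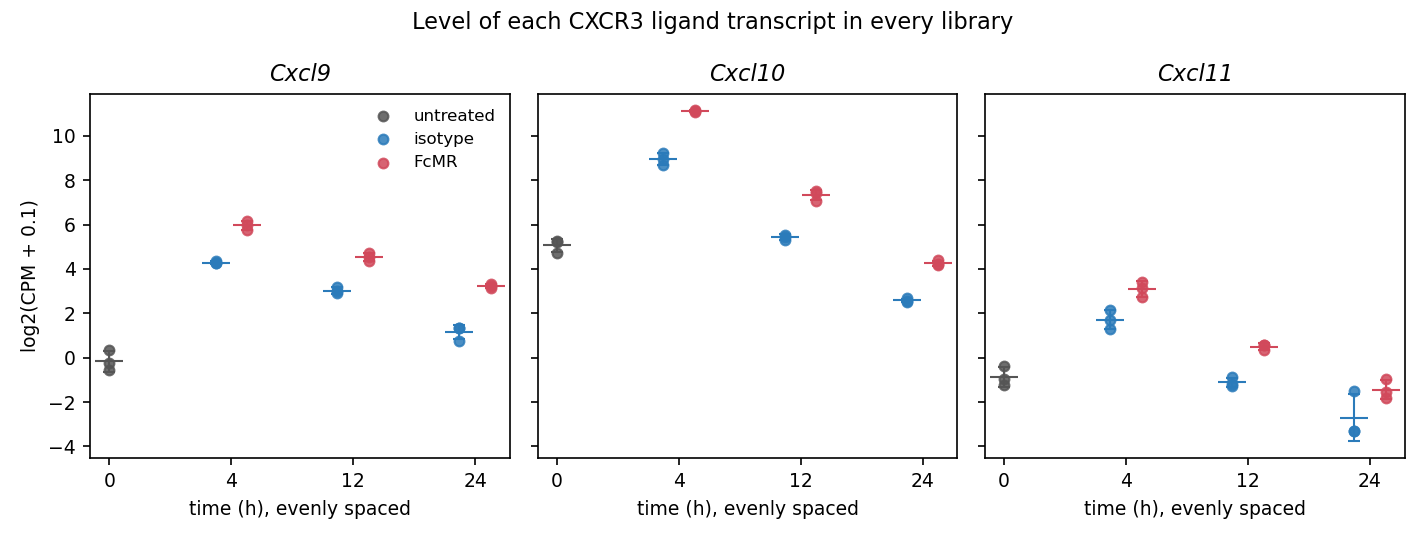
Level of Cxcl9, Cxcl10 and Cxcl11 in each of the 21 libraries, as log2 of CPM plus 0.1 (vertical axis) at 0, 4, 12 and 24 h (horizontal axis, times evenly spaced). Points are libraries, horizontal bars are means of the log2 values and error bars SD (n = 3), with untreated cells in grey, isotype in blue and FcMR in red. All 3 transcripts were highest with FcMR at 4 h, and Cxcl10 at 24 h lay below its untreated level in both treated groups.

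All 3 ligands were higher with FcMR than with the isotype control at 4 h and at 12 h, and Cxcl9 and Cxcl10 at 24 h as well. At 4 h Cxcl10 averaged 502 ± 95.1 CPM (SD, n = 3) under isotype and 2233 ± 64.2 under FcMR, which differed by 2.15 on the log2 scale (SE 0.148, edgeR adjusted p = 2.97e-08). Cxcl9 averaged 19.5 ± 0.811 and 63.4 ± 8.82 CPM, a difference of 1.71 (SE 0.153, adjusted p = 7.17e-07). Cxcl11 averaged 3.27 ± 1.01 and 8.61 ± 2.02 CPM, a difference of 1.43 (SE 0.352, adjusted p = 0.00839). Of the 13468 genes tested, 8.62% were called higher at 4 h, and 13.5% were higher with no overlap of the groups. By the size of the change Cxcl10 ranked 87th, Cxcl9 144th and Cxcl11 212th of the 13468 genes. The 4 h calls over all genes were 1161 higher and 1229 lower. RLE factors gave 1412 and 839, GC correction 2196 and 1530, and the authors' normalized values 1315 and 666. Without FcMR 4 h replicate 1 the change of Cxcl11 was 1.26 and was no longer called (adjusted p = 0.05). In bulk RNA, fewer cells making a transcript and less of it per cell cannot be told apart.

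At 12 h the differences were of similar size on lower levels. Cxcl10 averaged 43.2 ± 3.81 CPM under isotype and 162 ± 24.4 under FcMR, 1.91 apart on the log2 scale (SE 0.148, edgeR adjusted p = 7.63e-08). Cxcl9 averaged 8.06 ± 0.850 and 23.4 ± 2.87 CPM, a difference of 1.52 (SE 0.154, adjusted p = 1.56e-06). Cxcl11 averaged 0.365 ± 0.0658 and 1.32 ± 0.133 CPM, a difference of 1.91 (SE 0.426, adjusted p = 0.00388). No FcMR library overlapped the isotype libraries for any of the 3. At this time 8.61% of genes were called higher, and 17.5% were higher without overlap. With limma on the authors' normalized values Cxcl11 was not called at 4 h (adjusted p = 0.0914) or at 12 h (adjusted p = 0.0624).

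At 24 h Cxcl9 averaged 2.17 ± 0.486 CPM under isotype and 9.31 ± 0.584 under FcMR, 2.09 apart on the log2 scale (SE 0.188, edgeR adjusted p = 2.22e-07). Cxcl10 averaged 5.89 ± 0.359 and 19.1 ± 1.53 CPM, a difference of 1.70 (SE 0.170, adjusted p = 8.22e-07). Both were called without overlap, where 11.4% of genes were called higher and 17.8% were higher without overlap. For Cxcl11 the difference was not called (adjusted p = 0.215). Its pooled counts were 11 with FcMR and 2 with isotype. Divided by the library totals after TMM scaling, these gave a ratio of 3.33 (95% exact binomial interval 0.726 to 30.9, which covers counting error only). This interval includes both no difference and the differences seen for the other two ligands. Without isotype 24 h replicate 3, which holds both of the isotype counts, the adjusted p was 0.0341.

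Markers of other cell types were summed in the same libraries. The 6 dendritic cell markers, most of it Itgax and Ccr7, summed to 1639 to 1805 CPM with FcMR and 1441 to 1512 with isotype at 4 h, to 1622 to 1850 against 1701 to 1757 at 12 h, and to 1570 to 1658 against 1389 to 1534 at 24 h. The groups thus overlapped at 12 h and did not at 4 and 24 h. At 24 h the members differed in direction, with Ccr7 at 672 ± 31.2 CPM with FcMR against 395 ± 30.5 and Itgax at 867 ± 22.4 against 1011 ± 61.3. The 7 neutrophil markers summed to 833 to 999 CPM with FcMR and 867 to 1174 with isotype at 4 h, to 279 to 483 against 256 to 334 at 12 h, and to 195 to 210 against 159 to 187 at 24 h. Among them at 24 h, S100a8 was at 137 ± 5.89 CPM with FcMR against 85.4 ± 1.02, whereas Ltf was at 2.50 ± 1.40 against 12.2 ± 3.62. The sum of the 8 macrophage markers was lower with FcMR at 24 h without overlap, at 25834 to 27760 CPM against 31625 to 35843. It overlapped at 4 and 12 h. These members also differed in direction at 24 h. Lyz2 was at 21707 ± 1016 CPM with FcMR against 28184 ± 2094, and Adgre1 at 1507 ± 208 against 837 ± 39.0. The part of these cell types in the differences of the ligands was not tested.

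**Figure D2:**
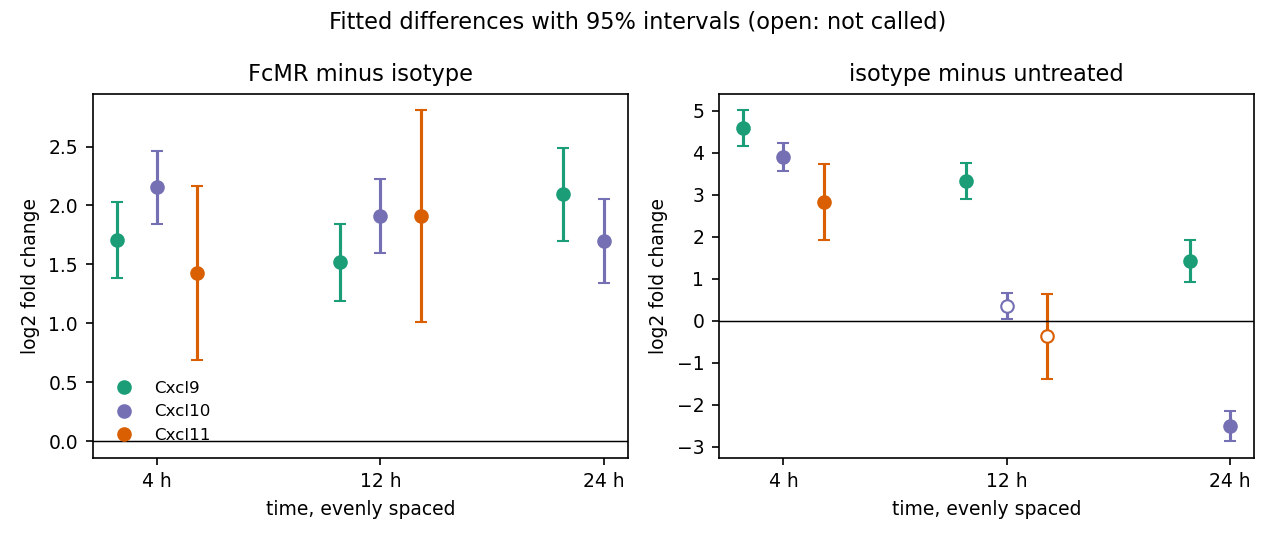
Fitted log2 fold changes of the 3 ligands (vertical axis) at 4, 12 and 24 h (horizontal axis, times evenly spaced) for FcMR minus isotype and for isotype minus untreated, with 95% intervals from the edgeR fit. Filled points were called and open points were not, and Cxcl11 at 24 h is left out because the isotype libraries held 2 counts in all. The FcMR differences drawn lay between 1.43 and 2.15, whereas the isotype differences ran from 4.59 for Cxcl9 at 4 h to -2.52 for Cxcl10 at 24 h.

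The isotype control itself was accompanied by a rise of all 3 ligands at 4 h. Against untreated cells Cxcl9 rose from 0.825 ± 0.307 to 19.5 CPM, or by 4.59 on the log2 scale (SE 0.204, edgeR adjusted p = 1.03e-11). Cxcl10 rose from 33.7 ± 6.24 to 502 CPM, a change of 3.89 (SE 0.161, adjusted p = 3.67e-12). Cxcl11 rose from 0.470 ± 0.187 to 3.27 CPM, a change of 2.83 (SE 0.427, adjusted p = 4.64e-05). None of the 3 overlapped the untreated libraries, and 20.4% of genes were called higher and 23.8% were higher without overlap. Untreated cells were taken at 0 h only, so the protein and the time in culture cannot be told apart. These comparisons share the untreated libraries with each other and the isotype libraries with the FcMR comparisons.

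By 12 h the ligands had parted against untreated cells. Cxcl9 was still higher in isotype libraries, by 3.34 on the log2 scale (SE 0.203, edgeR adjusted p = 4.74e-10). Cxcl10 differed by 0.35 (SE 0.146) and was not called (adjusted p = 0.0625), although its groups did not overlap. It was called at 0.45 without untreated replicate 1 (adjusted p = 0.0425), at 0.44 without isotype 12 h replicate 3 (adjusted p = 0.0419), and at 0.37 without both libraries out of title order (adjusted p = 0.0216). Cxcl11 differed by -0.37 (SE 0.478) and was not called (adjusted p = 0.571). At 12 h 22% of genes were called higher and 32.5% were higher without overlap.

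At 24 h the isotype libraries stood on opposite sides of the untreated ones. Cxcl9 was higher, by 1.43 on the log2 scale (SE 0.239, edgeR adjusted p = 1.05e-04). Cxcl10 was lower, with a log2 fold change of -2.52 (SE 0.169, adjusted p = 1.73e-09), or 5.73-fold. Cxcl11 was called lower (edgeR adjusted p = 0.0124), on 19 untreated counts against 2. Divided by the library totals after TMM scaling, these gave an untreated to isotype ratio of 5.86 (95% exact binomial interval 1.41 to 51.9). That call was lost without isotype 24 h replicate 1 (adjusted p = 0.0993) or replicate 2 (adjusted p = 0.0847), and in DESeq2 (adjusted p = 0.0517). The share of genes called was 21.3% higher and 20.9% lower, and without overlap 29.9% were higher and 32.8% lower. With FcMR at 24 h the mean of Cxcl9 was 11.3-fold its untreated mean and that of Cxcl10 was 0.567 of it. These FcMR levels against untreated cells are a description and were not tested.

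After 4 h all 3 transcripts fell under both proteins, Cxcl10 by the most. From 4 to 12 h with isotype the log2 fold change was -3.54 (SE 0.158) for Cxcl10, -3.20 (SE 0.428) for Cxcl11 and -1.25 (SE 0.157) for Cxcl9, with edgeR adjusted p of 1.64e-10, 2.55e-05 and 1.4e-05. With FcMR over the same interval it was -3.79 (SE 0.158) for Cxcl10, -2.72 (SE 0.363) for Cxcl11 and -1.45 (SE 0.149) for Cxcl9, with adjusted p of 2.12e-11, 1.29e-05 and 7.34e-07. Of all genes 19.3% were called lower with isotype and 18.8% with FcMR, and 24.2% and 23.5% were lower without overlap, as all 3 ligands were. Ordered from the largest rise to the largest fall, Cxcl10 with FcMR stood 13439th of the 13468 genes.

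From 12 to 24 h the fall went on. With isotype the log2 fold change was -2.87 (SE 0.169, edgeR adjusted p = 6.2e-09) for Cxcl10 and -1.91 (SE 0.187, adjusted p = 1.48e-06) for Cxcl9. Cxcl11 held 30 counts at 12 h, 21 of them in replicate 3, and 2 at 24 h. Divided by the library totals after TMM scaling, these gave a 12 h to 24 h ratio of 4.51 (95% exact binomial interval 1.15 to 39.0). Cxcl11 was not called (edgeR adjusted p = 0.0642). It was called without isotype 24 h replicate 3 (adjusted p = 0.0113), after GC correction (adjusted p = 0.0398) and by limma on the authors' normalized values (adjusted p = 0.0435). With FcMR it was -3.08 (SE 0.157, adjusted p = 5.9e-10) for Cxcl10, -2.32 (SE 0.475, adjusted p = 0.00184) for Cxcl11 and -1.33 (SE 0.155, adjusted p = 8.92e-06) for Cxcl9. With isotype 9.49% of genes were called lower and 32.2% were lower without overlap, and with FcMR these shares were 12.6% and 14.8%. The isotype calls were 969 higher and 1278 lower, where RLE factors gave 1220 and 1065. The neutrophil marker sum fell over the same times, from 1144 to 1332 CPM untreated to 159 to 187 with isotype at 24 h, and its part in these falls was not tested.

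Whether the FcMR difference itself changed with time was tested in the same fit. No ligand was called in the joint test over the 3 times, with edgeR adjusted p of 0.272 for Cxcl9, 0.374 for Cxcl10 and 0.848 for Cxcl11, where 11% of genes were called. From 4 to 12 h the difference changed by -0.19 (95% interval -0.64 to 0.26) for Cxcl9, by -0.25 (-0.67 to 0.18) for Cxcl10 and by 0.48 (-0.63 to 1.60) for Cxcl11. From 12 to 24 h it changed by 0.58 (0.066 to 1.09) for Cxcl9, which had an unadjusted p of 0.0293 in edgeR and an adjusted p of 0.391, and by -0.21 (-0.68 to 0.26) for Cxcl10. The call rates over all genes were 5.39% for the first change and 1.73% for the second. The intervals of Cxcl9 and Cxcl10 leave out changes of more than about 1.09 in either direction, and the one of Cxcl11 does not.

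The composition of the ligand transcripts shifted with time. Per kilobase of the longest transcript, the log2 ratio of Cxcl9 to Cxcl10 was -5.34, -5.97 and -5.81 in the untreated libraries. At 4 h it was -4.97, -4.79 and -5.36 with isotype and -5.36, -5.51 and -5.68 with FcMR. At 24 h it was -1.57, -2.16 and -1.72 with isotype and -1.53, -1.45 and -1.24 with FcMR. Every library of 12 h lay between those of 4 h and those of 24 h, with means of -2.79 for isotype and -3.16 for FcMR. In untreated cells Cxcl10 was thus 52.3-fold more abundant than Cxcl9, and with FcMR at 24 h 2.65-fold. The FcMR libraries had the lower ratio at 12 h and the higher one at 24 h, without overlap, and at 4 h the groups met at their edges. This difference between the groups was not tested. Cxcl11 was 446-fold below Cxcl10 and 9.74-fold below Cxcl9 with FcMR at 4 h. Taking for each gene the longest transcript that is not annotated as a retained intron shortens Cxcl10 from 2230 to 1353 bases and lowers each Cxcl9 to Cxcl10 ratio by the same amount, to -6.24 for FcMR at 4 h and -2.13 at 24 h.

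**Figure D3:**
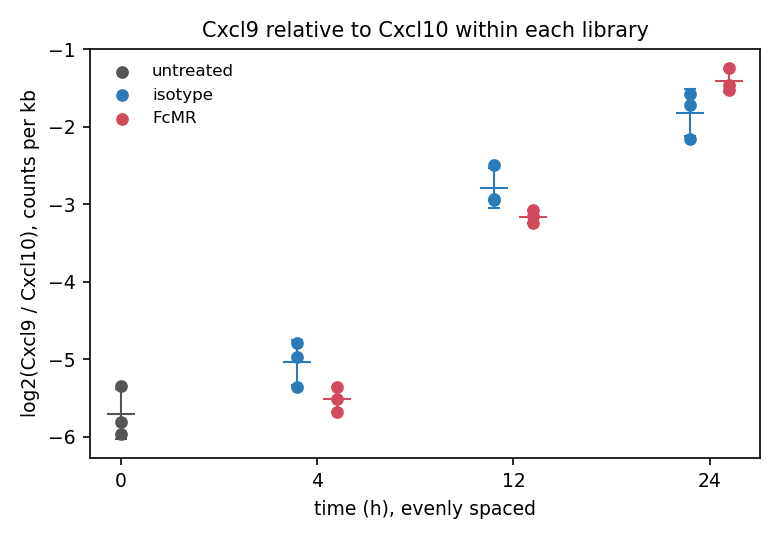
Log2 ratio of Cxcl9 to Cxcl10, in counts per kilobase of the longest transcript (vertical axis), in each of the 21 libraries by time (horizontal axis, times evenly spaced). Horizontal bars are means and error bars SD (n = 3). The ratio rose from between -5.97 and -5.34 in untreated libraries to between -2.16 and -1.24 at 24 h.

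Over the 21 libraries, the log2 CPM of Cxcl10 and Cxcl11 correlated at r = 0.974, that of Cxcl9 and Cxcl10 at 0.803 and that of Cxcl9 and Cxcl11 at 0.776. The libraries fall into 7 groups and share their scaling, so these values describe mainly the order of the groups. After each group's mean was subtracted they were 0.143, 0.463 and 0.487 in the same order. The genes whose log2 CPM followed each ligand most closely, out of 11433 genes whose log2 CPM averaged 1 or more, also differed. For Cxcl9 they were the guanylate-binding protein gene Gbp5 (r = 0.988), the antiviral gene Ifit1 (0.985), Cd274, which encodes the checkpoint ligand PD-L1 (0.983), the immunity-related GTPase gene Igtp (0.982) and Calhm6 (0.980). For Cxcl10 they were the early activation marker Cd69 (0.991), the pentraxin gene Ptx3 (0.990), Tnf (0.989), Tnfsf15 (0.983) and the neutrophil-attracting chemokine gene Cxcl2 (0.982). For Cxcl11 they were Pstpip2 (0.977), Cd69 (0.974), Ptx3 (0.970), Tnf (0.967) and Gm36976 (0.964). Cd69, Ptx3 and Tnf were thus on the lists of both Cxcl10 and Cxcl11, and no gene on the list of Cxcl9 was on either of the others.

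Levels of some of these genes describe the patterns. The genes were picked by likeness to the ligands over these same libraries, so their sharing of a pattern follows from the choice. Gbp5 was at 12.2 CPM untreated, at 4 h at 1479 with FcMR and 476 with isotype, and at 170 and 47.6 at 24 h, so that, like Cxcl9, it stayed above its untreated level. Cd69 was at 21.005 CPM untreated, at 481 and 140 at 4 h, and at 17.9 and 5.46 at 24 h, below its untreated level as Cxcl10 was. Tnf was at 160.3 CPM untreated, 5790 and 1057 at 4 h and 67.8 and 46.4 at 24 h.

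The upstream genes of the pathway were read from lists chosen for these ligands. Of the 5 interferon genes looked up (Ifnb1, Ifna4, Ifng, Ifnl2 and Ifnl3), 2 were among the deposited genes, Ifnb1 and Ifng. Of these, only Ifnb1, which encodes interferon-beta, passed the filter. It held 3.12, 4.33 and 3.35 CPM with FcMR at 4 h (18 to 115 counts) and 1.01, 0.180 and 0.348 with isotype (1 to 7 counts), 2.79 apart on the log2 scale (SE 0.564, edgeR adjusted p = 0.00194). At 12 and 24 h Ifnb1 was within 0 to 16 counts in all libraries and was not called between FcMR and isotype (adjusted p = 0.739 and 0.709). Ifng, the gene of interferon-gamma, held 0 to 3 counts in every library and was not tested. The receptor gene Cxcr3 held 0 to 14 counts and was not tested either.

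The shares of all genes called at 4, 12 and 24 h, against which each list is to be read, were 8.62%, 8.61% and 11.4% higher with FcMR and 9.13%, 7.49% and 9.44% lower. Of 7 interferon receptor and kinase genes tested, 2 were called higher with FcMR than with isotype at each time and 1 lower at 24 h. The 2 were Ifnar2, a chain of the type I interferon receptor, at 0.57, 0.69 and 0.85 on the log2 scale at 4, 12 and 24 h, and the kinase gene Jak2 at 0.59, 0.52 and 1.19. Ifngr1, a chain of the interferon-gamma receptor, was called lower at 24 h, at -0.55. Of 8 interferon transcription factor genes, 6 were called higher at 4 h, 1 at 12 h, and 1 higher and 1 lower at 24 h, the last 2 times being near the shares over all genes. Irf1 was called higher at all 3 times, at 0.79, 0.61 and 0.55, and Stat2 at 4 h, at 0.78. Irf7 differed by 1.47 at 4 h and was called there alone. At 12 h it held 488, 886 and 871 CPM with FcMR and 448, 469 and 529 with isotype. The value of 488, inside the isotype range, is that of replicate 1, a library out of title order. At 24 h Irf7 held 481, 355 and 616 CPM with FcMR and 312, 292 and 337 with isotype, without overlap. Irf2 was higher by 0.55 at 4 h and lower at 24 h, at -0.27. Whether these differences changed between times was tested per gene. Of the 8, 2 were called lower in the change from 4 to 12 h and none from 12 to 24 h. Over all genes 5.39% and 1.73% were called in either direction in these changes.

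Of 5 NF-kB subunit genes, 2, 1 and 1 were called higher at 4, 12 and 24 h, where 8.62%, 8.61% and 11.4% of all genes were, and a single call of 5 is not set apart from these shares. Nfkb1 was called at all 3, at 0.93, 0.59 and 0.40, and Rel at 4 h, at 0.68. The median log2 difference of the 5 was 0.68, 0.19 and 0.35, against -0.07, -0.02 and 0.0064 over all genes. Of 5 feedback genes 2, 3 and 2 were called higher. Socs3, a suppressor of cytokine receptor signalling, differed by 1.72, 2.15 and 1.70, and Usp18, which limits type I interferon signalling, by 1.30, 0.74 and 0.52. Socs1, the main brake on interferon-gamma signalling, was called at 12 h, at 1.52, although its groups overlapped. At 12 h it held 12.2, 45.1 and 44.5 CPM with FcMR and 9.42, 10.7 and 14.977 with isotype. The lowest of these FcMR values, inside the isotype range, is that of replicate 1, a library out of title order. From the list of receptors and modifiers of the ligands, 4 genes were tested. They were the protease genes Dpp4, Mmp9 and Mmp12, whose products clip chemokines, and Pf4. The last encodes a platelet chemokine and is itself neither a receptor nor a modifier of the ligands. None of the 4 was called at 4 h. Mmp12 was called lower at 12 h (-0.46) and 24 h (-0.72), and Mmp9 higher at 24 h (0.90).

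Interferon-response genes were mostly higher with FcMR, as the ligands were. Of 12 genes linked mainly to type I interferon, 11 were called higher at 4 h, 9 at 12 h and 9 at 24 h, against 8.62%, 8.61% and 11.4% of all genes. Their median log2 differences were 1.25, 0.82 and 0.84. Over all genes tested the median was -0.07, -0.02 and 0.0064. Of 11 tested genes linked mainly to interferon-gamma, 8, 9 and 10 were called higher, with medians of 0.85, 0.83 and 0.86. Oasl1 had the largest change of the first list at 4 h, at 2.36, and Gbp2 of the second list at 24 h, at 2.48. Oas2 was not called at any time, with 0.32, 0.24 and 0.05. At 4 h Cxcl9, Cxcl10 and Cxcl11, at 1.71, 2.15 and 1.43, were above the median of either list. Against untreated cells, all 12 type I genes were called higher with isotype at 4, 12 and 24 h, with medians of 4.40, 4.06 and 2.44, where 20.4%, 22% and 21.3% of all genes were. Of the 11 interferon-gamma genes, 9, 9 and 7 were called higher, with medians of 2.06, 2.21 and 0.73, and 2 were called lower at 24 h, Ciita at -2.16 and Icam1 at -1.76. At 24 h the type I list was thus higher than in untreated cells, and more interferon-gamma genes were called higher (7) than lower (2). Cxcl9 was higher and Cxcl10 lower at that time. The lists were chosen with results of these data known and are not independent evidence of a direction. They also share genes. The transcription factor gene Irf1 and the feedback gene Socs1 are on the interferon-gamma list as well. The feedback gene Usp18 is on the type I list as well, so calls of these genes count in both lists.

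**Figure D4:**
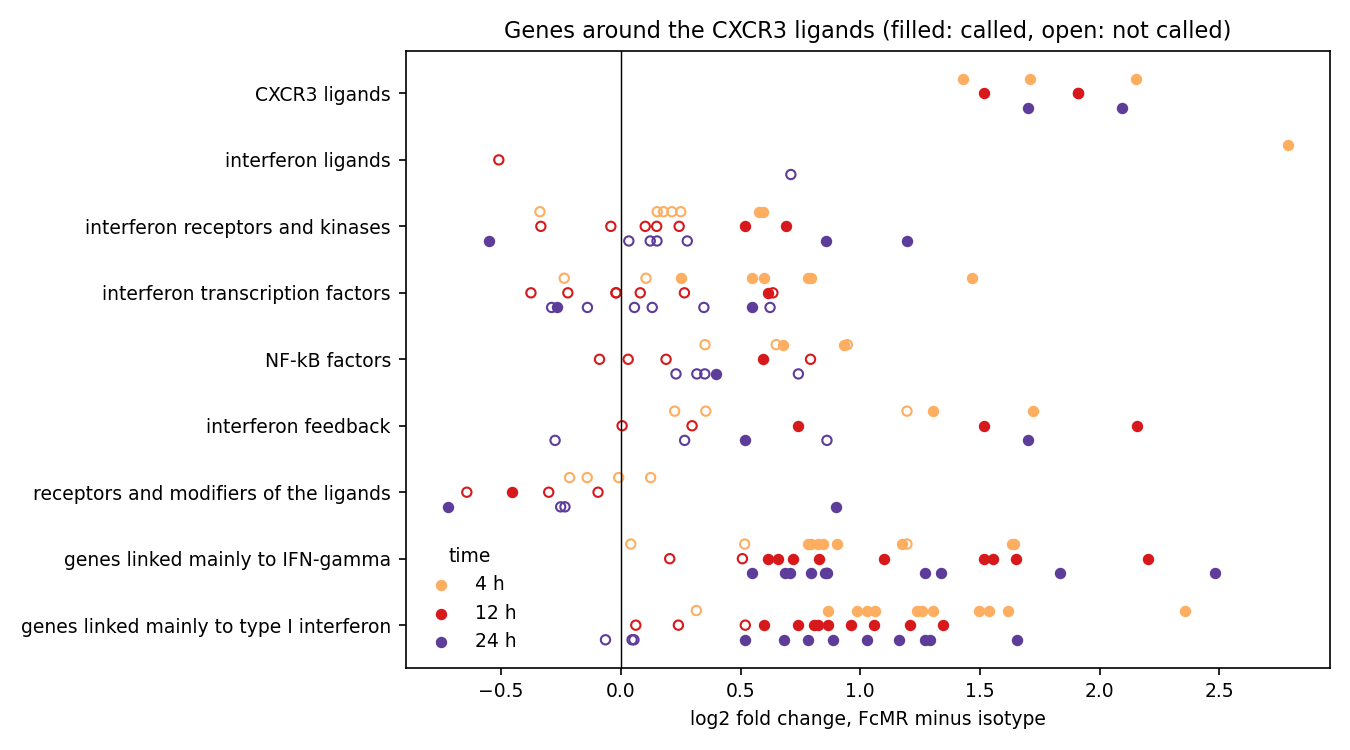
Log2 fold change, FcMR minus isotype (horizontal axis), of the ligands and of each tested gene of 8 pathway lists (rows), at 4 h (orange), 12 h (red) and 24 h (purple). Filled points were called and open points were not, and Cxcl11 at 24 h is left out. The type I interferon list has 11 of 12 filled points at 4 h, and the called ligand points lie between 1.43 and 2.15.

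The neighbours of the ligands in the genome were read in the same fit. Of 20 annotated genes that start within 250 kb of a ligand, 14 were in the table and 9 were tested. Between FcMR and isotype 2 were called higher at 4 h, 1 higher and 1 lower at 12 h, and 2 higher and 1 lower at 24 h, where the shares over all genes were 8.62%, 8.61% and 11.4% higher and 9.13%, 7.49% and 9.44% lower. With 9 genes tested, 1 call in 1 direction is near these shares. U90926, which starts 112671 bases from Cxcl9, was the neighbour called higher at all 3 times. It held 37.0, 33.7 and 37.6 CPM with FcMR and 6.61, 5.05 and 4.17 with isotype at 4 h, 2.78 apart on the log2 scale (SE 0.213, edgeR adjusted p = 1.13e-07). Its differences were 3.11 at 12 h and 2.75 at 24 h, and its untreated libraries held 0 to 3 counts. With FcMR U90926 was at 36.1 ± 2.10 CPM at 4 h and 36.7 ± 5.79 at 12 h (n = 3), an interval over which each ligand fell. Nup54, a nuclear pore gene, differed by 0.38 at 4 h, and Scarb2, a lysosomal membrane gene, by 0.30 at 24 h. Naaa, which encodes a lysosomal amidase, was lower at 12 h (-0.72) and 24 h (-0.43). Sdad1, which lies next to Cxcl9, differed by -0.13 at 4 h (adjusted p = 0.334).

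**Figure D5:**
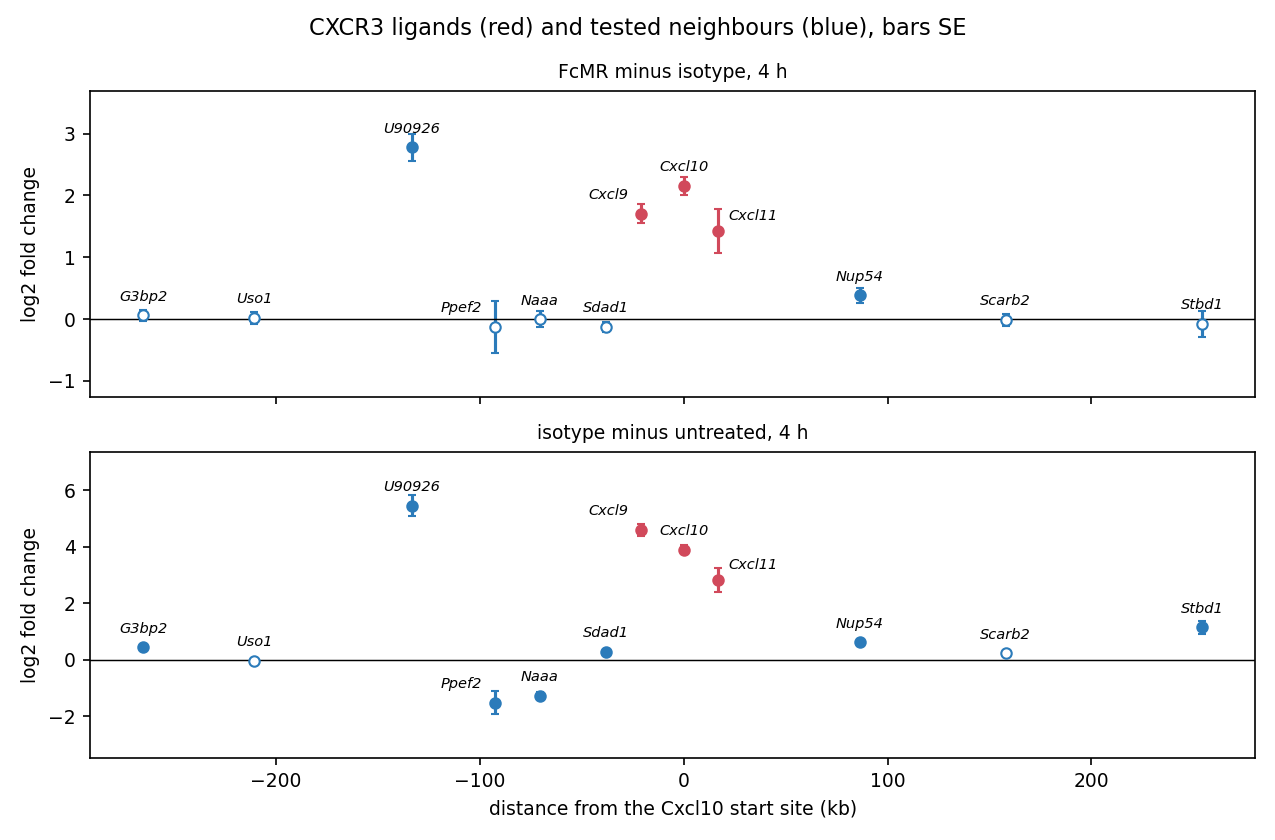
Log2 fold changes at 4 h (vertical axes, error bars SE) of the 3 ligands (red) and the 9 tested neighbours (blue) against the distance of their start sites from that of Cxcl10 in kb (horizontal axis). Filled points were called and open points were not, and the value of U90926 against untreated libraries of 0 to 3 counts depends on the prior count. Between FcMR and isotype the ligands lie at 1.43 to 2.15 and U90926 at 2.78, while the other neighbours lie between -0.13 and 0.38.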

How the data were processed

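RNA-seq was made with a TruSeq kit and 75 bp single-end reads, per the labels' protocols. CASAVA 1.8.2, kallisto 0.44.0, DESeq2 and the builds mm10 and GRCm38 are named per the submitters' processing notes, without roles. The authors deposited estimated counts per gene as whole numbers, used as they stood, and normalized values, a linear signal that equals the counts divided by a factor per gene and library. The plan had assumed plain counts, and its test also fits estimated counts. Every row named a gene, and each row summed to at least 10 counts. Kallisto can move reads between near-identical genes. Identifiers were matched without version to GENCODE M21, and 23187 of 23250 had a symbol.

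Groups and replicate numbers came from the sample titles. edgeR 4.0.16 (R 4.3.3) was fitted once to the 21 libraries with a coefficient per group, TMM scaling, filterByExpr (minimum of 10 counts) and the quasi-likelihood test. Calls were made under 0.05 after Benjamini-Hochberg adjustment over the 13468 genes tested. SE and intervals come from the quasi-likelihood F. Simulated counts with known changes were made for FcMR against isotype at 4 h (12961 genes). Of rises of 1.5-fold 32% were called, of 2-fold 94% and of 4-fold 100%. The simulation gave all genes the same spread and changed no other group, so its rates need not hold for the real libraries or for groups of few counts. Ratios within a library used a prior count of 0.5, and likeness was Pearson's r of log2 CPM with a prior count of 2. CPM intervals and floors cover counting error only. Named genes were the 3 ligands, fixed lists, every gene starting within 250 kb, and the 5 genes most like each ligand. The ligands and lists were chosen with earlier results of these data known. From the list of transcription factors, 1 gene is not reported here.

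Alternatives were RLE factors, 2 other filters, DESeq2 1.42.0, limma 3.58.1 on log2(value + 1) of the authors' normalized values, GC correction in 20 bins, the replicate number as a block, the compared libraries alone, other transcript lengths and leaving out libraries. The transcript length without retained introns was chosen after seeing the data.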

Additional observations from a re-analysis of the deposited data

How the results depend on the processing

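Each of the 39 tests of the ligands kept its direction and its side of the threshold under RLE factors, without a filter and with a mean of at least 10 counts. The exceptions under other settings concern Cxcl11 and the difference of Cxcl10 between isotype and untreated cells at 12 h. For Cxcl11, limma on the authors' values gave 1.41 (4 h) and 1.60 (12 h) for FcMR against isotype, neither called, and -1.71 for isotype 24 h against 12 h, called, as GC correction did at -2.15. DESeq2 gave -2.54 for isotype against untreated at 24 h, not called. Cxcl10 at 12 h was called at 0.37 without both libraries out of title order. With only the compared libraries fitted, Cxcl11 had too few counts to be tested in 4 comparisons.

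With 1 library left out, where a lone pair shares the spread of the other groups, Cxcl11 ran from 1.22 to 1.71 (FcMR against isotype, 4 h), 1.07 to 5.07 (24 h), -5.81 to -1.82 (isotype against untreated, 24 h) and -5.46 to -1.47 (isotype 24 h against 12 h). Its change of the FcMR difference from 12 to 24 h ran from -0.84 to 3.16, reversed at 0.13 without FcMR 24 h replicate 2 and at 3.16 without isotype 24 h replicate 3, and was never called. The isotype libraries of 24 h held 2 counts of Cxcl11 in all and the FcMR libraries 11, which limits the precision of its 24 h values. The cause of these ranges was not tested. Cxcl10 against untreated at 12 h ran from 0.21 to 0.45.

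Counts of genes called moved further. For FcMR against isotype at 4 h, 2390 became 868 with only the compared libraries, 3726 after GC correction and 3898 without both libraries out of title order, with 1589 to 3151 on leaving out 1 library (3151 without isotype 4 h replicate 3). At 12 h, 2169 became 3349 after GC correction, and 23 genes of the pathway lists, each counted once, became 35. Isotype against untreated at 4 h gave 4792 and 2881 with only the compared libraries. For isotype 12 h against 4 h, 4737 became 2689 and 7127 under the same first and last settings, and ran from 3126 to 6739 on leaving out 1 library. For isotype 24 h against 12 h, 2247 became 5794 with only the compared libraries, 3542 after GC correction, 3805 without both libraries, and 1401 to 1675. For FcMR 24 h against 12 h, 3203 became 1046, 5407 without both libraries, and 1988 to 4276. The change of the FcMR difference from 4 to 12 h gave 726 calls, then 349 without a filter, 400 with limma, 359 with only the compared libraries, 1737 after GC correction and 323 to 1422. From 12 to 24 h these were 233, then 154 without a filter, 363 in DESeq2, 138 with limma and 661 after GC correction. The joint test gave 1484, then 925 without a filter, 2927 after GC correction, 2616 without both libraries and 973 to 2294. The cause was not tested.

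Levels without scaling were 53.5 CPM for Cxcl9 and 1883 for Cxcl10 with FcMR at 4 h and 6.27 for Cxcl10 with isotype at 24 h, and RLE factors gave 2301 for Cxcl10 with FcMR at 4 h. With transcripts other than retained introns, the log2 ratio of Cxcl9 to Cxcl10 was -6.43 untreated, -5.76, -3.51 and -2.54 with isotype at 4, 12 and 24 h, and -6.24, -3.88 and -2.13 with FcMR. Cxcl11 to Cxcl10 with FcMR at 4 h was -9.52, and -9.13 with mean transcript lengths.

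Replicate numbers are shared by all groups. Same-numbered FcMR and isotype libraries correlated between -0.17 and 0.20 in their deviations, so the numbers were not taken as pairs. With the replicate number as a block, Cxcl10 at 4 h differed by 2.15 and 2541 genes were called, and none of the 39 tests of the ligands changed its call.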
